A study of Rattus norvegicus with 24 samples.

Results

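The MHC class II genes of the rat were followed in brain tissue 3 months after traumatic brain injury (TBI) or sham operation. The members were 8 genes, taken by name from the 26641 loci that carry a gene name, of 42334 loci in all. They were the chain genes RT1-Da and RT1-Db1 of the RT1-D molecule, the chain genes RT1-Ba and RT1-Bb of the RT1-B molecule, RT1-DMa and RT1-DMb of the peptide exchange factor DM, the invariant chain gene Cd74 and the transactivator gene Ciita. Where a name stood at several loci, the locus with the highest mean over the 24 libraries was taken.

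Messenger RNA had been sequenced from 12 adult male Sprague-Dawley rats, in tissue of the cortex around the lesion (perilesional) and of the thalamus on the same side (ipsilateral). In 6 rats a lateral fluid-percussion injury had been induced through a left craniectomy (TBI rats 22, 24, 45, 52, 56 and 63), and 6 rats had had the same anesthesia and surgery without the impact (sham rats 26, 32, 34, 38, 50 and 55), so that both groups carried the craniectomy. Each rat gave 1 library per region, which made 4 groups of 6 libraries. In the study, MRI was used to identify TBI rats with an inflammatory rim around the lesion, so the TBI rats do not stand for every injured rat.

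Class II molecules are pairs of an alpha and a beta chain that show peptides from taken-up protein to CD4 T cells. The invariant chain Cd74 holds the new pair together and fills its groove until proteases of the endosome cut it away, and DM then exchanges the last piece of it for a peptide. Ciita does not bind DNA itself: it is recruited by the RFX, NF-Y and CREB family factors that sit on the X and Y boxes of class II promoters, and it is induced by interferon gamma. In brain, microglia and the macrophages of the borders are the best known cells that can carry class II, and healthy brain holds little of it.

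The promoters of the chain genes are shown because each of these genes rose after TBI in both regions. Around their group means they did not all move together, with Pearson's r between pairs from 0.31 to 0.91. Any part of the promoter letters in the levels was not tested. Of the 8 members, 6 had a promoter in the RefSeq table (build GRCr8), all but RT1-DMb and Ciita. The 150 bases before the annotated start are printed 5′ to 3′ for the chain genes, with matches to the X1 core (GCAACNG), the X2 core (TGACG) and the Y box (ATTGG), on both strands, in capitals. The stretches are chr20:4515265-4515414 on the plus strand for RT1-Da, chr20:4560163-4560312 on the minus strand for RT1-Db1, chr20:4576907-4577056 on the plus strand for RT1-Ba and chr20:4604119-4604268 on the minus strand for RT1-Bb.
RT1-Da: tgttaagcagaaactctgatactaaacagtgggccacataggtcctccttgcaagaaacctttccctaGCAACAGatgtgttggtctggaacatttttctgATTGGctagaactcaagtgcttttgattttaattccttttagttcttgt
RT1-Db1: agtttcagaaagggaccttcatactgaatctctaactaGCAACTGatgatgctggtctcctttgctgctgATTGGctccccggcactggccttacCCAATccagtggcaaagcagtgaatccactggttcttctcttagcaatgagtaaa
RT1-Ba: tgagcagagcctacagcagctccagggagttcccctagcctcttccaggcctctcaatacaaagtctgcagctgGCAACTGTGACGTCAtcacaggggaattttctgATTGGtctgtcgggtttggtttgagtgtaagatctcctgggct
RT1-Bb: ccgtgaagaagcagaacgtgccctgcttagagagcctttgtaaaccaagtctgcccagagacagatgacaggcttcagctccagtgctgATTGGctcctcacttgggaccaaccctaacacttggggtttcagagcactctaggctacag

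An X1 core followed by a Y box on the same strand stood in the RT1-Da, RT1-Db1 and RT1-Ba promoters. The X1 core began at base -82 from the start in RT1-Da, at -112 in RT1-Db1 and at -76 in RT1-Ba, and the Y box began 33, 32 and 33 bases after it. Of the 33469 promoter windows of the table, each 300 bases long, 39 (0.117%) held an X1 core with a Y box 25 to 40 bases after it, a range set after these matches had been seen. Alone the motifs were common: 12.2% of windows held the X1 core, 21.2% the X2 core, 37.5% the Y box and 45.5% the S box core (GGACC). In RT1-Ba the X1 core was followed directly by an X2 core at -69, which overlapped an X2 core of the other strand at -66. RT1-Bb held a Y box at -61, a Y box of the other strand at -172, outside the 150 bases printed, and no match to the X1 letters. RT1-Db1 also held a Y box of the other strand at -55. RT1-DMa held Y boxes at -64 and -34, and Cd74 held a Y box of the other strand at -189, outside the 150 bases printed for the chain genes. The interferon GAS element (TTCNNNGAA), in 8.87% of windows, was in none of the 6 member windows, which says only that these letters are not in them. Ciita had no window, so its promoter was not searched.

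Levels are given as normalized counts, in which the authors had scaled the fragments of each library by a factor of its own. A library held 30568928 to 54608919 fragments, and 3 fragments were taken as the floor of detection. A locus was tested where its mean over the libraries compared was at least 10. Fold changes are differences of log2(normalized count + 1), and calls are adjusted p-values (limma, Benjamini-Hochberg over all loci tested) below 0.05. The 5 cortex identity genes summed to 58257 to 63987 in sham cortex and to 4693 to 10057 in sham thalamus, and the 5 thalamus identity genes to 3371 to 4125 and to 83522 to 118883, so both regions carried their own markers. The libraries are of bulk tissue, so more cells of a type cannot be told apart from more RNA per cell.

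Of the 8 members, 6 passed the filter. RT1-DMa and RT1-DMb did not: each name stood at 2 separate loci of equal span on chromosome 20 (6015059-6018462 and 7302036-7305439 for RT1-DMa, 6025148-6032385 and 7288114-7295351 for RT1-DMb), and none of these 4 loci had more than 3 fragments in any library. Among all 96 names with 2 separate loci of equal span on 1 chromosome, 95 had a mean below 1, against 29.98% of the names with 1 locus. How fragments that fit both copies were counted is not given in the sources used here, so nothing can be said of the level of DM. These positions and those given with each member and with RT1-Db2 below are from the deposited files, whose annotation was Rnor_5.0, and not from the build of the promoters.

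In the perilesional cortex, 5 of the 6 tested members rose after TBI and none fell, with a median log2 fold change of 1.02 over the 6 against -0.01 over all 15493 loci tested. By the same rule 14.3% of all loci rose and 14.9% fell. In thalamus all 6 tested members rose, with a median of 1.82 against -0.02 over 15564 loci, of which 14.5% rose and 20.9% fell. Ciita reached the filter there only through its TBI libraries (mean 7.01 in sham and 19.7 in TBI thalamus), so its place in this count is not independent of its rise. With no filter the count in thalamus was also 6. Under TMM scaling the share of lower loci among those called in thalamus was 45.7%, against 59.0% as deposited, and the 6 members stayed higher under both. The 6 TBI values lay above every sham value in 2 members in cortex (7.02% of all loci did so) and in 5 members in thalamus (7.46%).

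**Figure D1:**
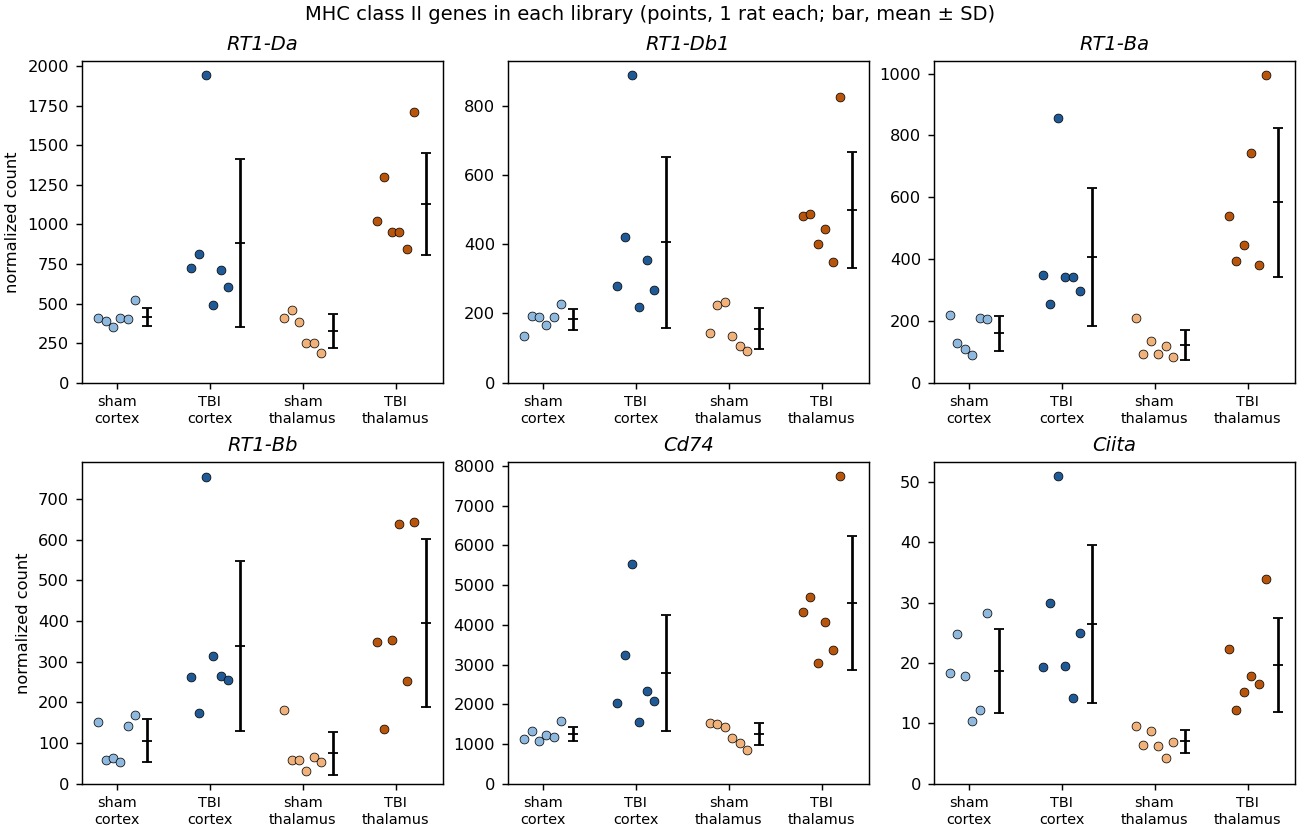
Normalized counts of the 6 tested MHC class II genes in the 24 libraries, by group, with 1 point per rat and the group mean ± SD as a bar. TBI cortex rat 45 and TBI thalamus rat 63 are the highest points of their groups in all 6 panels, and the TBI thalamus points lie above every sham thalamus point except in RT1-Bb.

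RT1-Da (chromosome 20, 6207783-6212754) encodes the alpha chain of RT1-D, the counterpart of human HLA-DR. Its normalized count was 351 to 519 in sham cortex (median 403) and 492 to 1944 in TBI cortex (median 721). In thalamus it was 190 to 458 in sham rats (median 319) and 844 to 1709 in TBI rats (median 988). In cortex 1 TBI rat lay within the sham range, and in thalamus the groups did not overlap. The log2 fold change was 0.95 ± 0.24 (SE, adjusted p = 0.0083 by limma) in cortex and 1.82 ± 0.22 (adjusted p = 2.7e-05 by limma) in thalamus.

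RT1-Db1 (6167758-6177326), which encodes the beta chain of RT1-D, was at 133 to 226 in sham cortex (median 189.8) and 219 to 889 in TBI cortex (median 317). Sham thalamus held 91.0 to 233 (median 139.5) and TBI thalamus 349.5 to 823 (median 462). The groups touched in cortex, where 5 of 6 TBI rats were above all sham rats, and were apart in thalamus. It rose by 0.99 ± 0.26 on the log2 scale (SE, adjusted p = 0.010 by limma) in cortex and by 1.70 ± 0.24 (adjusted p = 0.00012 by limma) in thalamus. RT1-Db1 has a closely related copy next to it, RT1-Db2 (6186326-6204918), and fragments may have been split between them.

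RT1-Ba (6146270-6150864) encodes the alpha chain of RT1-B, the counterpart of human HLA-DQ. It was at 89.4 to 217 in sham cortex (median 167) and 254 to 855 in TBI cortex (median 342). The thalamus values were 83.1 to 210.0 in sham rats (median 106) and 379.8 to 995 in TBI rats (median 492). All 6 TBI rats were above all 6 sham rats in both regions, with a log2 fold change of 1.30 ± 0.28 (SE, adjusted p = 0.0033 by limma) in cortex and 2.23 ± 0.26 (adjusted p = 2.2e-05 by limma) in thalamus.

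RT1-Bb (6123271-6129244), the beta chain gene of RT1-B, was at 53.4 to 169 in sham cortex (median 103) and 174 to 754 in TBI cortex (median 264). In thalamus it was at 31.1 to 180.4 in sham rats (median 59.1) and 134 to 644 in TBI rats (median 351). The cortex groups did not overlap, while in thalamus sham rat 26 exceeded TBI rat 24. RT1-Bb had the highest log2 fold change of the members in both regions, 1.65 ± 0.35 (SE, adjusted p = 0.0031 by limma) in cortex and 2.41 ± 0.41 (adjusted p = 0.00044 by limma) in thalamus, where it ranked 32 among the loci tested.

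Cd74 (chromosome 18, 55305847-55315242), the invariant chain gene, was at 1064 to 1579 in sham cortex (median 1207) and 1543 to 5543 in TBI cortex (median 2209). Sham thalamus held 857 to 1521 (median 1297) and TBI thalamus 3050 to 7751 (median 4197). Only the lowest TBI cortex rat lay within the sham cortex range, and the thalamus groups were apart. It rose by 1.04 ± 0.23 on the log2 scale (SE, adjusted p = 0.0037 by limma) in cortex and by 1.82 ± 0.20 (adjusted p = 1.4e-05 by limma) in thalamus.

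Ciita (chromosome 10, 4037679-4083966), the transactivator gene, had the fewest fragments of the 6 tested members, between 4 and 60 in a library. It was at 10.4 to 28.3 in sham cortex (median 18.1) and 14.2 to 51.0 in TBI cortex (median 22.2), and the groups overlapped. In thalamus it was at 4.20 to 9.55 in sham rats (median 6.65) and 12.2 to 34.02 in TBI rats (median 17.2), with no overlap. Ciita did not pass the test in cortex, with a log2 fold change of 0.44 ± 0.30 (SE, adjusted p = 0.29 by limma), and it rose in thalamus by 1.33 ± 0.28 (adjusted p = 0.0020 by limma). Every sham thalamus value was below the minimum mean, so Ciita was tested there only through its TBI libraries.

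Library by library, the highest value of all 6 tested members in TBI cortex was that of rat 45, and in TBI thalamus that of rat 63. Without rat 45 the cortex log2 fold changes were 0.69 for RT1-Da, 0.73 for RT1-Db1, 1.06 for RT1-Ba, 1.39 for RT1-Bb, 0.81 for Cd74 and 0.24 for Ciita, and the same 5 members passed the test. Without rat 63 the thalamus values were 1.70 for RT1-Da, 1.55 for RT1-Db1, 2.06 for RT1-Ba, 2.24 for RT1-Bb, 1.65 for Cd74 and 1.17 for Ciita, and all 6 passed. The cortex library of rat 45 also had the highest summed border macrophage markers of its group (2528, against a group median of 1819) and the highest choroid plexus markers (30973, median 636). It was highest there too in the microglia markers (29209, median 28782) and in the dendritic cell, astrocyte, CD4 and CD8 T cell sums. In the B cell, endothelial and neuron markers it was not the highest. In TBI thalamus rat 45 was highest in the choroid plexus markers (252658, median 1531) and in the border macrophage markers (4052, median 1558). Rat 63 was highest there in the microglia markers (51044, median 44151), the B cell markers (1319, median 877) and the CD4 T cell genes (4328, median 2975). Most of the B cell sum was Cd22 (7603 fragments over the 24 libraries, the next gene Cd79b 78). Most of the CD4 T cell sum was Cd4 (37040, the next gene Lck 1766), so neither sum gives the level of a cell type. The part of these markers in the result was not tested.

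The TBI effect was higher in thalamus than in cortex for each of the 6 tested members, by 0.71 to 0.93 on the log2 scale, but none of these differences passed the interaction test (limma). RT1-Da gave 0.87 ± 0.35 (SE, adjusted p = 0.13), Cd74 0.78 ± 0.33 (adjusted p = 0.16), RT1-Ba 0.93 ± 0.41 (adjusted p = 0.18), Ciita 0.89 ± 0.41 (adjusted p = 0.20), RT1-Db1 0.71 ± 0.38 (adjusted p = 0.28) and RT1-Bb 0.76 ± 0.58 (adjusted p = 0.48) in limma. At an unadjusted p below 0.05 there were 4 of 6, and limma-voom also called 0. Of all 15678 loci, 2.72% had a larger effect in thalamus and 4.54% a smaller one. The result rested on 1 library: without TBI cortex rat 45, 2 members passed, RT1-Da at 1.13 (adjusted p = 0.0135 by limma) and Cd74 at 1.01 (adjusted p = 0.0277 by limma).

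In sham rats, 5 of the 6 tested members did not pass the test between thalamus and cortex, with log2 differences from -0.55 for RT1-Bb to -0.02 for Cd74. Ciita was lower in sham thalamus than in sham cortex, by -1.26 ± 0.29 on the log2 scale (SE, adjusted p = 0.00058 by limma), with a mean of 7.01 ± 1.92 (SD, n = 6) against 18.7 ± 6.94. Of all loci 33.5% were higher in sham thalamus and 27.9% lower. For Cd74 the sham means were 1253 ± 279 in thalamus and 1251 ± 185 in cortex (SD, n = 6), below those of TBI cortex (2796 ± 1457) and TBI thalamus (4544 ± 1684). The ranges of TBI cortex and TBI thalamus overlapped in each of the 6 members.

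Around their group means the members fell into 2 blocks across the 24 libraries. The deviations of RT1-Da, RT1-Db1 and Cd74 followed each other with Pearson's r of 0.91 to 0.94, and those of RT1-Ba and RT1-Bb with 0.91. Between the blocks r was lower, from 0.31 (RT1-Db1 with RT1-Bb) to 0.63 (RT1-Da with RT1-Ba). Cd74 lies on another chromosome than the chain genes, and its r was 0.94 with RT1-Da and 0.40 with RT1-Bb. Ciita had r of 0.51 to 0.69 with the other 5. These values are descriptions: the points share libraries, and each rat gave 2 of them.

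**Figure D2:**
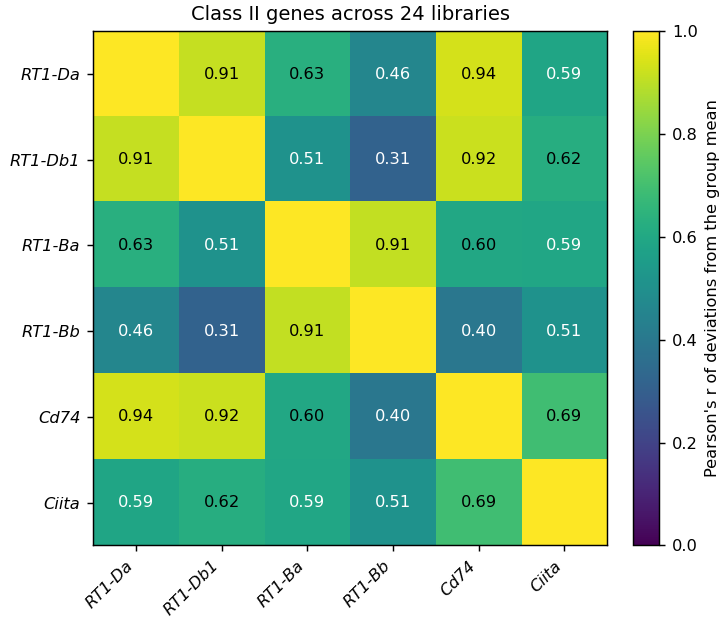
Pearson's r between pairs of the 6 tested class II genes over 24 libraries, each value taken as its deviation from its group's mean log2(normalized count + 1). RT1-Da, RT1-Db1 and Cd74 form 1 block of high values (0.91 to 0.94) and RT1-Ba and RT1-Bb another (0.91).

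Ratios were formed within each library after adding 1 to every normalized count, 5 between members and 2 of a member to the microglia markers, and TBI and sham rats were compared in both regions (14 comparisons, two-sided exact permutation test, 924 orders, smallest possible p 0.00216, Benjamini-Hochberg over the 14). The balance of the RT1-D chains, RT1-Da to RT1-Db1, had a median of 2.196 in sham cortex and 2.21 in TBI cortex, and of 2.06 and 2.26 in thalamus (exact permutation test, adjusted p = 0.78 and 0.48). Cd74 to RT1-Da had a median of 3.01 in sham and 3.20 in TBI cortex, and of 3.90 and 4.12 in thalamus (exact permutation test, adjusted p = 0.48 and 0.99). Their log2 differences between TBI and sham lay between -0.04 and 0.12. The ratios with RT1-DMa could not be formed.

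RT1-Ba to RT1-Bb had a median of 1.56 in sham cortex and 1.22 in TBI cortex, and 3 of 6 TBI rats were below all sham rats (exact permutation p = 0.0216, adjusted p = 0.091). In thalamus its medians were 1.67 and 1.52 (exact permutation test, adjusted p = 0.59). Ciita to Cd74 had a median of 0.0175 in sham and 0.00978 in TBI cortex (exact permutation p = 0.0368, adjusted p = 0.10), and of 0.00651 and 0.00490 in thalamus (exact permutation p = 0.0260, adjusted p = 0.091). Neither ratio passed after adjustment. With a pseudocount of 5 in place of 1 both Ciita to Cd74 ratios passed, at log2 differences of -0.66 and -0.81. That pseudocount is near the Ciita values themselves (4.20 to 9.55 in sham thalamus) and far below those of Cd74. It therefore lowers the rise of Ciita more than that of Cd74, and part of these differences comes from the setting.

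The ratio of RT1-Ba to RT1-Da ran from 0.206 to 0.780 over the 24 libraries, and it did not pass between TBI and sham rats in cortex or thalamus (exact permutation test, adjusted p = 0.30 and 0.30). In TBI rat 24 it was 0.313 in cortex and 0.304 in thalamus, the lowest of its group in both, and in TBI rat 52 it was 0.693 and 0.780, the highest in both. Sham rat 26 had 0.536 and 0.515, the highest of its group in both, while the lowest sham value was that of rat 38 in cortex (0.221, and 0.363 in thalamus) and of rat 32 in thalamus (0.206, and 0.329 in cortex). RT1-Db2 was at 0 fragments in both regions of sham rat 26 and in the cortex of TBI rat 52, and at 3 to 32 fragments in the other 21 libraries.

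**Figure D3:**
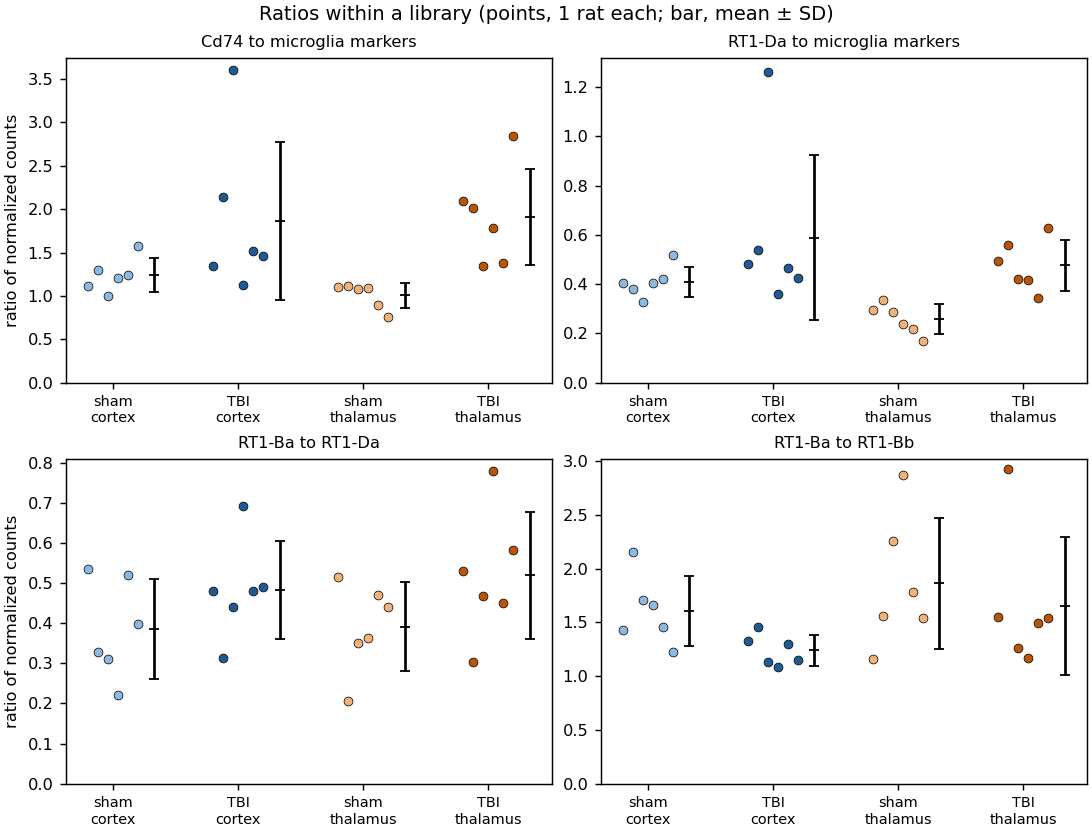
Ratios of normalized counts (+ 1) within each library by group, for Cd74 and RT1-Da over the geometric mean of 14 microglia markers, for RT1-Ba over RT1-Da and for RT1-Ba over RT1-Bb (points are rats, bars the mean ± SD). In thalamus the TBI rats lie above all sham rats in both upper panels, and in the lower panels the groups overlap in both regions.

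No member's level in the cortex was related to its level in the thalamus of the same rat by the test. Over the 6 TBI rats, Pearson's r between cortex and thalamus ran from -0.43 (Cd74) to 0.35 (RT1-Bb), with exact permutation p-values from 0.38 to 0.72. Over the 6 sham rats it ran from -0.75 (RT1-Da) to 0.57 (RT1-Bb), with exact permutation p-values from 0.0653 to 0.74. None of the 12 relations passed after adjustment (exact permutation test, adjusted p = 0.74 for each), and none had an unadjusted exact permutation p below 0.05 for Pearson's r or Spearman's rho. For Cd74 in TBI rats Spearman's rho was -0.31 (exact permutation p = 0.56), and r without the 2 rats farthest from the cortex median was 0.01. For RT1-Da in sham rats rho was -0.71 (exact permutation p = 0.14), and r without the farthest 2 rats was -0.55. Among TBI rats, Cd74 was 5543 in the cortex and 3050 in the thalamus of rat 45, the highest and the lowest of those groups. With 6 rats only strong relations could have passed.

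**Figure D4:**
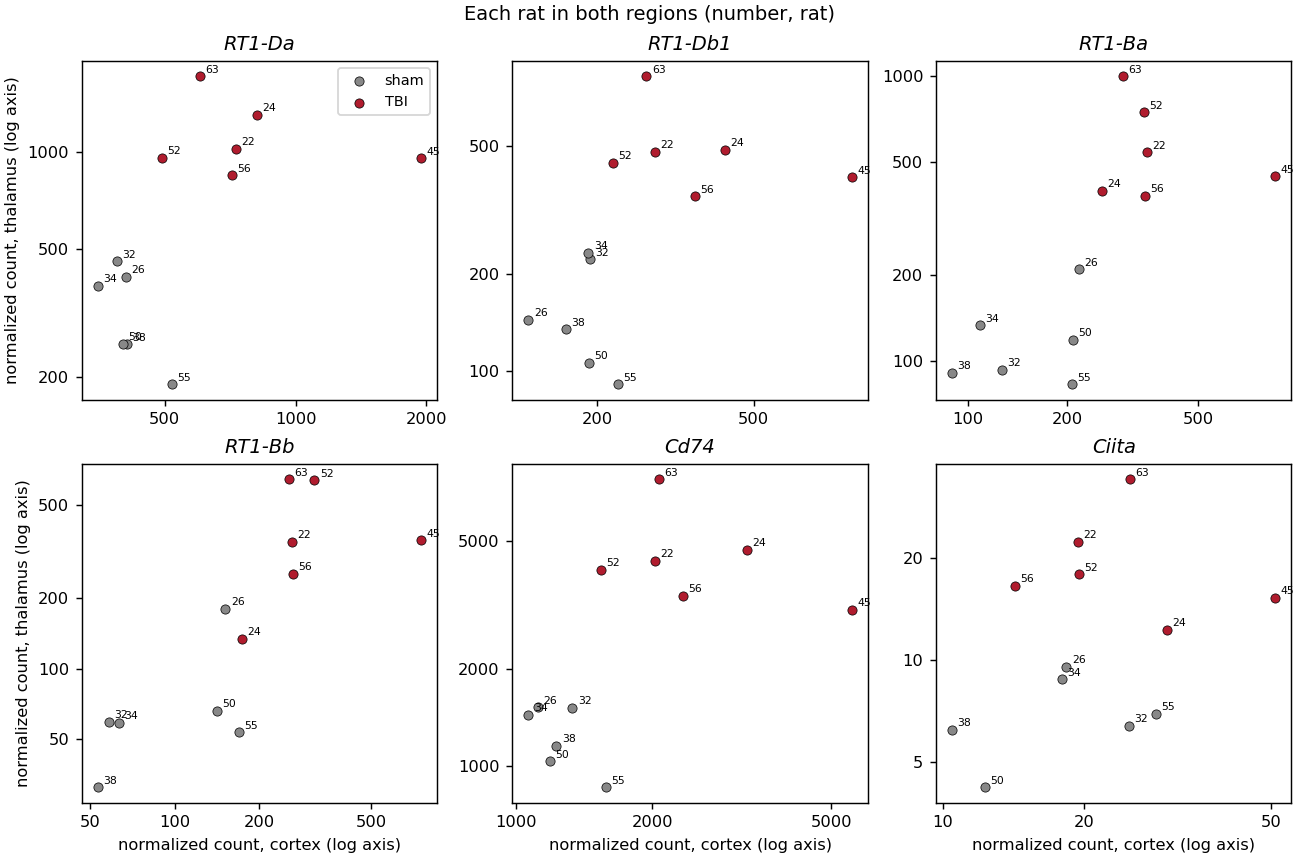
Normalized counts of the 6 tested class II genes in the cortex (x axis, log) and the thalamus (y axis, log) of the same rat, with rat numbers. Rat 45 lies farthest to the right and rat 63 highest in every panel, and neither group forms a rising line.

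Of the other class II loci, RT1-DOb, a chain gene of the DM inhibitor DO, was the only one tested. It was at 6.605 to 35.5 in sham cortex (median 15.3) and 15.5 to 34.9 in TBI cortex (median 28.6), with overlap and a log2 fold change of 0.74 ± 0.37 (SE, adjusted p = 0.14 by limma). In thalamus it was at 7.26 to 14.3 in sham rats (median 9.11) and 31.8 to 63.9 in TBI rats (median 51.3), with no overlap and a rise of 2.18 ± 0.24 (adjusted p = 1.4e-05 by limma). The effect was larger in thalamus by 1.44 ± 0.46, with adjusted p = 0.054 by limma, and adjusted p = 0.0265 with the rat as a block. This difference passed under 8 of 31 alternatives in all. RT1-DOa (at most 14 fragments), RT1-Db2 (at most 32) and RT1-Ha (at most 2) were under the filter.

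Of the 7 genes for the factors that hold Ciita on class II promoters, all tested, 0 were higher and 1 was lower in cortex, and 1 was higher and 0 were lower in thalamus, with medians of 0.02 and 0.04 on the log2 scale. For this list and those below, 14.3% of all loci were higher and 14.9% lower in cortex, and 14.5% and 20.9% in thalamus. Nfya, a subunit of the Y box factor NF-Y, rose in thalamus by 0.34 ± 0.08 (SE, adjusted p = 0.0054 by limma), and Nfyb, another subunit, fell by 0.19 in cortex (adjusted p = 0.032 by limma), a call lost under 7 of 20 alternatives, each of them without 1 library. Rfx5, Rfxank, Rfxap, Nfyc and Creb1 passed in neither region.

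Of the genes that lead to Ciita or bind its promoter, 8 of 9 were tested, and 4 rose in cortex and 5 in thalamus, none fell. Interferon gamma itself, Ifng, had at most 5 fragments in any library. Its receptor chain gene Ifngr1 rose by 0.29 in cortex (adjusted p = 0.0014 by limma) and 0.63 in thalamus (adjusted p = 2.8e-06 by limma), while Ifngr2 and Jak1 passed in neither. Irf1, a transcription factor that interferon gamma induces, rose by 0.51 in cortex and 0.79 in thalamus. Irf8 rose by 0.88 and 1.47 and Spi1 by 0.89 and 1.25, and both encode factors that microglia and macrophages need. Jak2 rose in thalamus (0.31, adjusted p = 0.00089 by limma) and did not pass in cortex (-0.12, adjusted p = 0.11 by limma), but fell there without TBI rat 45 (-0.16, adjusted p = 0.0397 by limma).

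All 8 tested genes for class II peptide loading rose in both regions (14.3% of all loci in cortex, 14.5% in thalamus), with medians of 0.44 and 0.80. Their products cut or reduce antigen, cut the invariant chain or hold the cutting enzymes in check. Cathepsin S (Ctss), which makes the last cuts of the invariant chain, rose by 0.45 ± 0.07 (SE, adjusted p = 0.00046 by limma) in cortex and by 0.98 ± 0.10 (adjusted p = 9.6e-06 by limma) in thalamus. Ifi30, a thiol reductase of the endosome, rose by 0.91 and 1.30, Ctsz by 0.75 and 1.15, and Cst3, an inhibitor of cathepsins, by 0.31 and 0.57. For 4 of the 8, Ctss, Ctsd, Ctsz and Lgmn, the rise was larger in thalamus by the interaction test, where 2.72% of all loci had a larger effect. Ctsd lost this call under 8 of 32 alternatives, each of them without 1 library.

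Among the genes of class II turnover and costimulation, 4 of 8 tested rose in cortex and 5 of 7 in thalamus, and none fell. Cd86, a costimulator of T cells, rose by 1.06 in cortex and 1.77 in thalamus, Cd40 by 0.64 and 0.82 and Icoslg by 0.53 and 0.92. March8, a ubiquitin ligase that can remove class II from the surface, rose by 0.17 and 0.31. Cd274, the inhibitory ligand PD-L1, rose in thalamus (0.49, adjusted p = 0.0018 by limma) and was at -0.06 in cortex (adjusted p = 0.56 by limma).

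**Figure D5:**
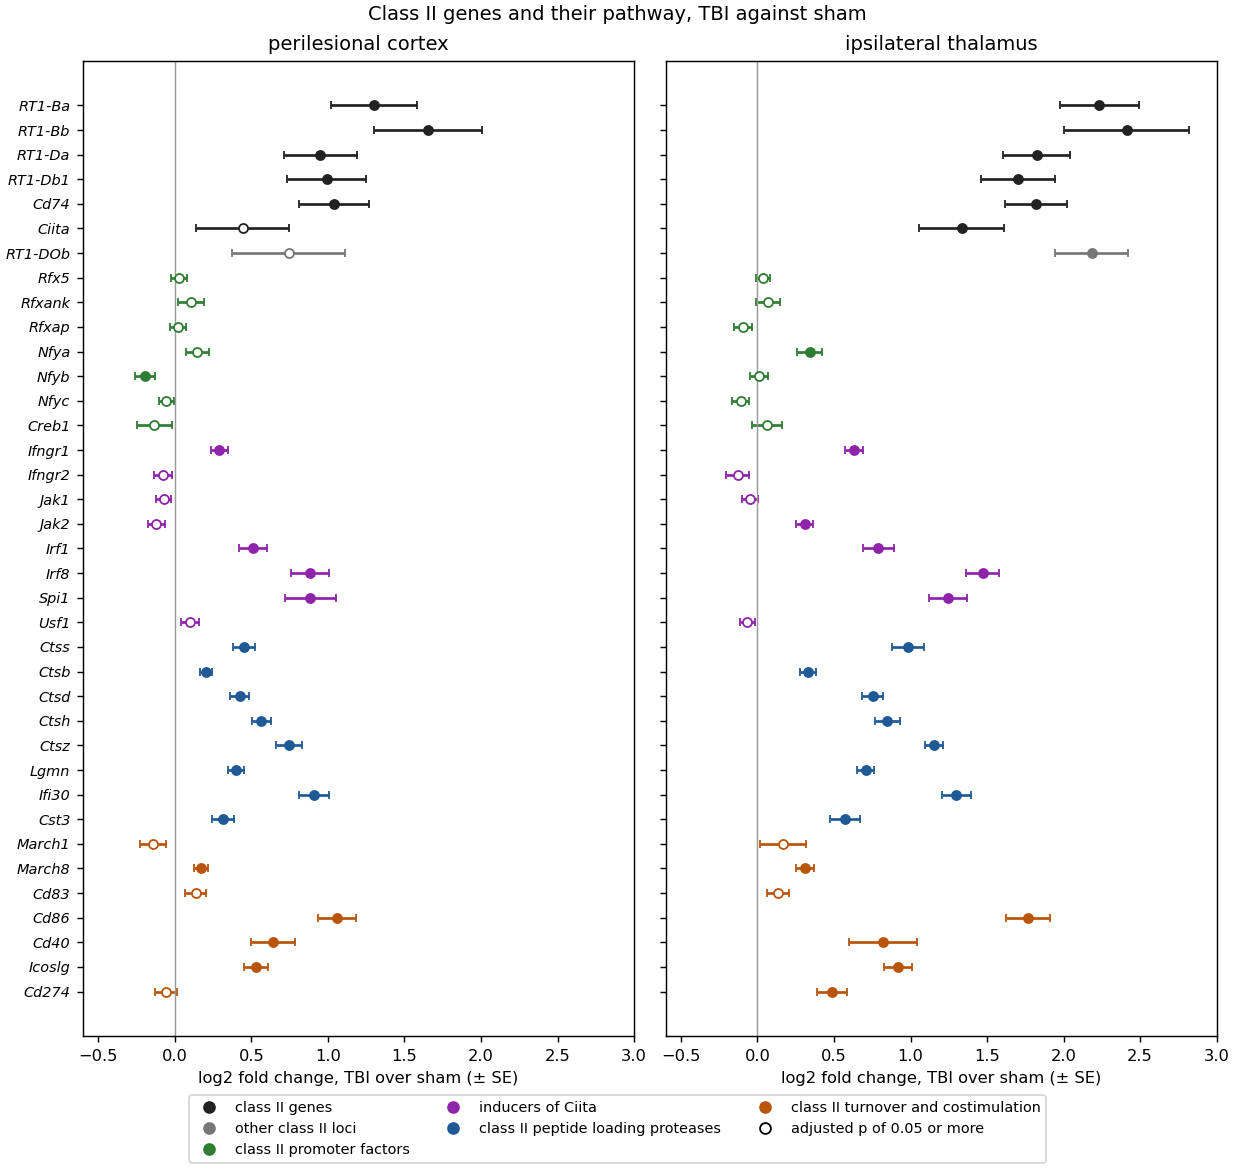
Log2 fold changes of TBI over sham (± SE) in cortex and thalamus for the class II genes and the genes of their pathway, with open points for an adjusted p of 0.05 or more. The class II chain genes and Cd74 lie at 0.95 to 2.41, the promoter factors at -0.19 to 0.34.

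Genes of the cells that read class II were scarce. Cd3d had at most 9 fragments in a library, Cd3g 16, Cd3e 43 and Ctla4 6, and of 5 genes tested in each region 2 rose in cortex and 2 in thalamus, namely Cd4 and Lag3 in both. Cd4, which rat microglia and macrophages also carry, rose by 0.78 ± 0.07 (SE, adjusted p = 4.5e-06 by limma) in cortex and by 1.78 ± 0.12 (adjusted p = 2.0e-07 by limma) in thalamus. Lag3, an inhibitory receptor that binds class II, rose by 1.04 and 2.32. It had at most 68 fragments in a library and 471 over the 24 libraries, so it may have reached the filter only through its TBI libraries. Lck, a kinase of T cells, passed in neither region.

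The markers of cells that can carry class II moved with the members in part. Of the 14 microglia markers 12 rose in cortex and all 14 in thalamus (medians 0.58 and 0.95), among them Csf1r by 0.61 and 1.02 and Cx3cr1 by 0.53 and 0.94. Their summed level was 18865 to 19999 in sham and 26220 to 29209 in TBI cortex, and 20535 to 26355 in sham and 40002 to 51044 in TBI thalamus. None of them was at 0 in every library. Of 7 border macrophage markers 4 rose in cortex and 1 in thalamus, and their sums were 1039 to 1317 in sham and 1375 to 2528 in TBI cortex, and 1355 to 1828 and 1221 to 4052 in thalamus. The 4052 was that of TBI rat 45, and no other TBI thalamus library exceeded 1879. Of the dendritic cell markers 3 of 6 rose in cortex and 2 of 5 in thalamus, where 1 fell, and their sums overlapped between groups in both regions, at 1445 to 1771 and 1381 to 1793 in cortex and at 1340 to 1695 and 1268 to 1662 in thalamus. Most of these sums was Flt3 and Zbtb46 (18861 and 13691 fragments over the 24 libraries), and the next gene, Clec10a, had 3361. Itgax, an integrin that activated microglia share with dendritic cells, rose by 1.72 in cortex and 2.77 in thalamus. It had at most 55 fragments in a library and 446 over the 24 libraries. Itgax may thus have reached the filter only through its TBI libraries, and its place among the markers that rose may not be independent of its rise. Of the 5 B cell markers with a locus, Ms4a1, Cd79b, Pax5 and Mzb1 had at most 14 fragments in any library, and only Cd22 was tested, which rose by 2.64 and 3.29. The summed B cell markers were at 23.7 to 65.8 in sham and 209 to 318 in TBI cortex, and at 76.4 to 120.2 and 524 to 1319 in thalamus. Cd22 alone had a mean of 39.6 in sham and 241 in TBI cortex and of 85.1 and 867 in thalamus. Of the markers of other cells, 3 of 4 for astrocytes rose in both regions, 4 of 4 for neurons fell in both, 0 of 4 for endothelium rose in cortex and 2 of 4 in thalamus, and 0 of 6 for choroid plexus passed in either. Of the 4 CD8 T cell markers 1 was tested in each region, Cd8a in cortex, which did not pass, and Cd8b in thalamus, which rose, with at most 1 fragment in a sham and 31 in a TBI library. Cd8b thus reached the filter in thalamus only through its TBI libraries. The part of each cell type in the rise of class II was not tested.

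Cd74 and RT1-Da were also compared as ratios to the microglia markers of the same library, which does not test the part of microglia in their rise. The ratio of Cd74 to the geometric mean of the 14 markers was 0.761 to 1.11 in sham thalamus (median 1.08) and 1.34 to 2.85 in TBI thalamus (median 1.89), and that of RT1-Da was 0.169 to 0.337 (median 0.263) and 0.344 to 0.628 (median 0.455). All 6 TBI rats were above all 6 sham rats for both, with log2 differences of 0.89 and 0.89 (exact permutation p = 0.00216, the smallest possible, adjusted p = 0.0152). In cortex the ratio of Cd74 had a median of 1.23 in sham and 1.49 in TBI rats and that of RT1-Da of 0.404 and 0.473, and neither passed (exact permutation test, adjusted p = 0.17 and 0.27). The highest cortex ratio, 3.60 for Cd74, was that of TBI rat 45.

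The locus whose deviations from the group means were most like those of the 6 tested members was Lyz2, the lysozyme gene, with Pearson's r of 0.84 over 24 libraries among 15672 loci. It rose by 0.78 in cortex (adjusted p = 0.0030 by limma) and by 1.72 in thalamus (adjusted p = 6.9e-06 by limma). The next were Flnc (0.74), Agpat4 (0.71), Vamp3 (0.71), the joint locus of Elovl1 and Med8 (0.70), Marcksl1 (0.70), Gnb4 (0.68) and Itgal (0.68). Of these 7 loci, 4 rose in both regions: Flnc by 1.19 in cortex and 1.03 in thalamus, Itgal by 1.09 and 1.94, Marcksl1 by 0.38 and 0.27 and Vamp3 by 0.18 and 0.28. The joint locus of Elovl1 and Med8 rose in cortex (0.21), Gnb4 rose in thalamus (0.34), and Agpat4 passed in neither region. By plain level, with the group differences left in, Lyz2 came first again (r 0.95), before Csf2rb (0.92), Serping1 (0.91) and Tgfb1 (0.91).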

How the data were processed

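The labels' notes name TopHat2 2.0.11, Bowtie2 2.2.2, Cufflinks 2.2.1 and Cuffdiff with Rnor_5.0; the study's methods name RGSC3.4 for the alignment. The authors deposited size-factor-normalized fragment counts per locus (signal, not raw counts), from polyA RNA of a stranded kit. In each library 100% of the values were whole multiples of 1 value (tolerance 0.1 fragments), which gave the fragments. Loci without a name held 1.90% to 2.23% of the values and were not tested.

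Tests were run with limma 3.58.1 (mean trend) in R 4.3.3 on log2(value + 1), for named loci with a mean of at least 10, TBI against sham within a region, and over 24 libraries for the interaction and the sham regions, with Benjamini-Hochberg adjustment. edgeR 4.0.16 was run on the recovered fragments without the sham thalamus library of rat 55, whose step is too close to 1 to be recovered with certainty, so its fragment numbers, used in the ranges and floors, are less sure than those of the other libraries. Scripts were tested on simulated data. The members, gene lists and named genes (the members, the listed genes, and the 8 and 4 loci most like the members) were chosen with earlier results of these data known. Some listed genes are not reported here. Same rats gave both regions per the labels: the correlation of a rat's deviations between regions had a median of 0.187 (0.00393 to 0.569), above 0.1 in 10 of 12 rats. Each group's 6 libraries come from 6 rats. Spreads and p-values cover rats, and the number of fragments limits Ciita most.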

Additional observations from a re-analysis of the deposited data

Results flagged for a closer look

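Each of the 6 tested members, RT1-DOb and the 7 ratios was examined in the 4 groups for a library far from the other 5, and 11 of 56 such groups had one, where chance gives about 5%. In TBI cortex rat 45 was far above the rest, at 855 normalized counts for RT1-Ba, 754 for RT1-Bb, 1944 for RT1-Da and 889 for RT1-Db1, and at 1.26 for the ratio of RT1-Da to the microglia markers. In TBI thalamus rat 63 was far above the rest for RT1-Db1 (823) and Cd74 (7751). Rat 24 stood apart there by ratio only, with 2.92 for RT1-Ba to RT1-Bb (highest) and 0.00282 for Ciita to Cd74 (lowest). Sham thalamus rat 26 was high for RT1-Bb (180.4) and sham cortex rat 55 for RT1-Da (519). The same library supplies several of these values, so they are not separate events.

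None of the 6 tested members, but 13 other genes described, differed between the regions in their TBI effect by the limma interaction test. All were larger in thalamus, on the log2 scale: Lag3 by 1.28 (adjusted p = 0.0191), Cd4 by 1.00 (adjusted p = 0.000128), Cd86 by 0.71 (adjusted p = 0.0225), Irf8 by 0.59 (adjusted p = 0.0408), Cd274 by 0.55 (adjusted p = 0.00557), Ctss by 0.53 (adjusted p = 0.0162), Jak2 by 0.43 (adjusted p = 0.00119), Csf1r by 0.41 (adjusted p = 0.00706), Cx3cr1 by 0.41 (adjusted p = 0.0292), Ctsz by 0.41 (adjusted p = 0.0204), Ifngr1 by 0.34 (adjusted p = 0.00895), Ctsd by 0.33 (adjusted p = 0.0313) and Lgmn by 0.31 (adjusted p = 0.0142) in limma. The calls of Irf8, Ctsd and Cx3cr1 were lost under 13, 8 and 6 of 32 alternatives. Of all 15678 loci, 2.72% had a larger effect in thalamus and 4.54% a smaller one. The 13 are named genes and not every listed gene that passed. Of the markers, 7 of 14 for microglia and 1 of 4 for astrocytes had a larger effect in thalamus. A smaller effect was found for 3 of 5 thalamus identity and 1 of 5 cortex identity genes. Lag3 had at most 68 fragments in a library.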

How the results depend on the processing

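The count of tested members past the threshold was 5 in cortex under each alternative run and 5 to 6 in thalamus, where a mean of at least 50 leaves Ciita out. That filter also gave 0 in place of 1 for thalamus against cortex in sham rats, since Ciita was that 1. Leaving out 1 library gave 5 in cortex, 6 in thalamus, 0 to 2 for the thalamus minus cortex difference of the TBI effect, 1 for sham rats, and 2 to 3 ratios. A pseudocount of 5, which is near the level of Ciita in sham thalamus, gave 4 ratios past the threshold in place of 2. No relation between the regions of a rat passed under any setting (0 to 0).

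The sign turned only for values near 0. Cd74 in sham rats, thalamus minus cortex, was -0.02 and ran from -0.0794 to 0.0861 on leaving out 1 library. The Cd74 to RT1-Da ratio in thalamus ran from -0.0545 to 0.0575 on leaving out 1 library and was 0.0079 with a pseudocount of 5, and the RT1-Da to RT1-Db1 ratio in cortex ran from -0.1018 to 0.0414 (log2 differences). The RT1-Ba to RT1-Bb ratio in cortex passed (adjusted p = 0.0404, exact permutation test) without sham rat 55. The cause was not tested.

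With the rat as a replicate block, of the class II genes only RT1-DOb changed its call (1.44, adjusted p = 0.0265, and 0.0145 with fixed terms, by limma), and 0 of 6 tested members passed the interaction test under either. The RT1-DOb interaction passed under 8 of 31 alternatives: both block fits, a pseudocount of 5 (adjusted p = 0.0402 by limma) and several fits without 1 library. RT1-DOb also passed in cortex without sham rat 26 (0.99, adjusted p = 0.0458 by limma). The interaction calls of Irf8, Ctsd and Cx3cr1 and the cortex call of Nfyb were lost under 13, 8, 6 and 7 alternatives, each of them without 1 library except the fit of Irf8 with no filter. The fragment test (edgeR) and, for the interaction, the block with fixed terms were chosen after seeing the data.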
